A study of Gallus gallus with 38 samples.

Results

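The jejunal mucosa of broilers was described by itself from the 19 arrays whose tissue label is jejunum, among 38 arrays in the series. The other 19 arrays are from the cecum of the same study and entered no test. The birds were male Ross 308 chickens, a fast-growing meat hybrid, slaughtered at 42 days (6 weeks in the labels) after the same standard diet in 3 feeding phases and the same vaccinations, among them against coccidiosis and Marek's disease. The paper states that the sampled birds were chosen for even body weight, and that birds with compromised RNA in either tissue were dropped. Mucosa was scraped from the rinsed intestine of each bird and hybridized to a chicken whole-transcript array, 1 array per bird, and the birds carry the numbers 1 to 19. The authors deposited log2 signals for 18308 probe sets, where a difference of 1 stands for a 2-fold change. Of these, 12300 carried 1 gene symbol (11528 different genes), 256 carried several and 5752 had no symbol. Where 1 gene had more than 1 probe set, the one of highest mean stands for it. Spread is the standard deviation (SD) over the 19 birds, so it holds both the variation of the birds and that of sampling and hybridization. The labels give no pen, extraction or scan batch per bird. The description field of all samples speaks of oxyntic (gastric) mucosa, against title and tissue, but the gastric genes *PGC* (progastricsin), *ATP4B* (a subunit of the acid pump) and *SOX2* (a foregut transcription factor) had signals of at most 4.46, 4.06 and 3.86 in the jejunum. A scraping is a mixture, in which fewer cells of a type and less RNA per cell cannot be told apart.

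The jejunum takes up most of the digested nutrients. Its villi are covered by absorptive enterocytes with a brush border of hydrolases and transporters, which are renewed from dividing cells in the crypts between them. The villus core, or lamina propria, holds fibroblasts, vessels, strands of smooth muscle and many lymphocytes and plasma cells. Known markers of each cell type were therefore followed across birds: genes whose signals move up and down together from bird to bird form the patterns described here.

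Median signals of the arrays lay between 5.57 and 5.75, and each array correlated with the others at a mean r of 0.949 to 0.977. The most alike pair (birds 11 and 15, r = 0.988) had identical signals in 293 of 18308 probe sets, so no pair of arrays held the same values. Defining genes of the absorptive enterocyte were high on every array: sucrase-isomaltase (*SI*) lay between 10.41 and 12.19 and intestinal fatty acid binding protein (*FABP2*) between 9.63 and 12.24.

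The array of bird 19 stood apart. It lay at least 1 log2 unit above all 18 others in 107 genes and at least 1 below all others in 47, against at most 24 and 37 genes for any other array. Several genes of the proximal small intestine were far lower there than on the other arrays: the lactase gene *LCT* had 3.81 in bird 19 (7.72 or more in the others), the alkaline sphingomyelinase *ENPP7* 4.56 (9.91 or more), the transcription factor *GATA4* 3.77 (7.34 or more) and cellular retinol binding protein *RBP2* 6.82 (10.79 or more). Genes of the hindgut surface were high, with the chloride-bicarbonate exchanger *SLC26A3* at 9.61 (5.54 or less in the others), the carbonic anhydrase *CA4* at 10.15 (8.37 or less) and the hindgut position gene *HOXA13* at 6.51 (4.64 or less). So were genes of the B cell follicle, with the chemokine receptor *CXCR5* at 9.11 (5.27 or less) and the complement receptor *CR2* at 9.16 (5.96 or less). Its *LCT*, *CA4* and *SLC26A3* lay within the range of the cecal arrays (3.19 to 4.97, 9.46 to 11.47 and 4.27 to 9.75), while its *SI* (10.41) and *FABP2* (9.63) lay above it (up to 7.59 and 8.52). Its *CXCR5* and *CR2* lay above the cecal range (up to 7.06 and 7.49), and *CBS*, the first enzyme of transsulfuration, had 3.47 there, against 10.88 to 12.40 in the cecum. *AQP8* (4.18) and *MAL* (3.09) also lay below their cecal ranges (7.78 to 11.52 and 7.95 to 10.24). *HOXA11* (6.19) lay below its cecal range (6.93 to 7.95) but above the other jejunal arrays (5.04 or less). The bile acid transporter *SLC10A2* was high in bird 19 too, at 8.63 (6.32 or less in the others). The array thus goes in part against its label, which was kept. The main counts and the correlations between marker genes are given without it as well, alone or together with another bird. Values of single genes against a marker are over all 19 birds unless stated.

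The array of bird 8 stood apart in another way. It was at least 1 above all others in 24 genes, led by the interferon-induced *RSAD2* (viperin), which had 8.79 in bird 8 and at most 6.08 elsewhere. The lipid droplet coat *PLIN2* had 10.77 there and at most 8.90 elsewhere. Some genes high in the cecum were raised in bird 8 too, but stayed below their cecal ranges. Cystathionine beta-synthase (*CBS*) had 8.10 in bird 8 and at most 5.44 elsewhere (10.88 to 12.40 in the cecum). *AQP8* had 6.35 against at most 5.03 (cecum 7.78 to 11.52), and *MAL* 4.37 against at most 3.27 (cecum 7.95 to 10.24). *SLC26A3* (3.85), *CA4* (6.98) and *HOXA13* (3.97) of bird 8 lay within the range of the other jejunal arrays. The arrays of birds 2 and 5 were opposite ends of the stromal pattern described further on.

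The highest signals in the jejunum belonged to mitochondrial, housekeeping, absorptive and immune genes. Probes differ in how strongly they bind, so the order of genes by signal is not an order of transcript numbers. The mitochondrially encoded *COX3* and *ND4L*, subunits of complexes IV and I of the respiratory chain, averaged 12.92 ± 0.07 and 12.90 ± 0.10 (SD, n = 19). Uroguanylin (*GUCA2B*), a gut peptide that controls salt and water secretion, followed with 12.37 ± 0.31, and lay between 11.44 (bird 5) and 12.81 (bird 18). Among the 20 genes of highest mean were also the iron store *FTH1* (12.15 ± 0.14), the elongation factor *EEF1A1* (12.09 ± 0.15), the actin-binding *TMSB4X* (11.86 ± 0.20) and *ACTB* (11.51 ± 0.32). All 20 kept their place among the first 20 when birds 8 and 19 were left out.

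Of the absorptive genes in that group, apolipoprotein A1 (*APOA1*), a lipoprotein component, averaged 11.92 ± 0.79. *SI* and maltase-glucoamylase (*MGAM*), which split disaccharides and starch fragments, averaged 11.76 ± 0.41 and 11.71 ± 0.27. *FABP2* had 11.42 ± 0.54 and *RBP2* 11.42 ± 1.14. The SD of *RBP2* was 0.25 without birds 8 and 19, and that of *APOA1* 0.40, and both genes had their lowest signal in bird 19. Antigen presentation and antibody secretion were represented by the class II invariant chain *CD74* (11.95 ± 0.23), the class I light chain *B2M* (11.63 ± 0.15) and *JCHAIN* (11.59 ± 0.78), which joins the IgA of plasma cells. *JCHAIN* ranged between 9.58 (bird 2) and 12.70 (bird 19) with a median of 11.86, and its SD hardly changed without birds 8 and 19 (0.77). *EPCAM*, the pan-epithelial adhesion molecule, averaged 11.44 ± 0.22, with 10.72 in bird 5 and 11.28 or more in the others.

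**Figure D1:**
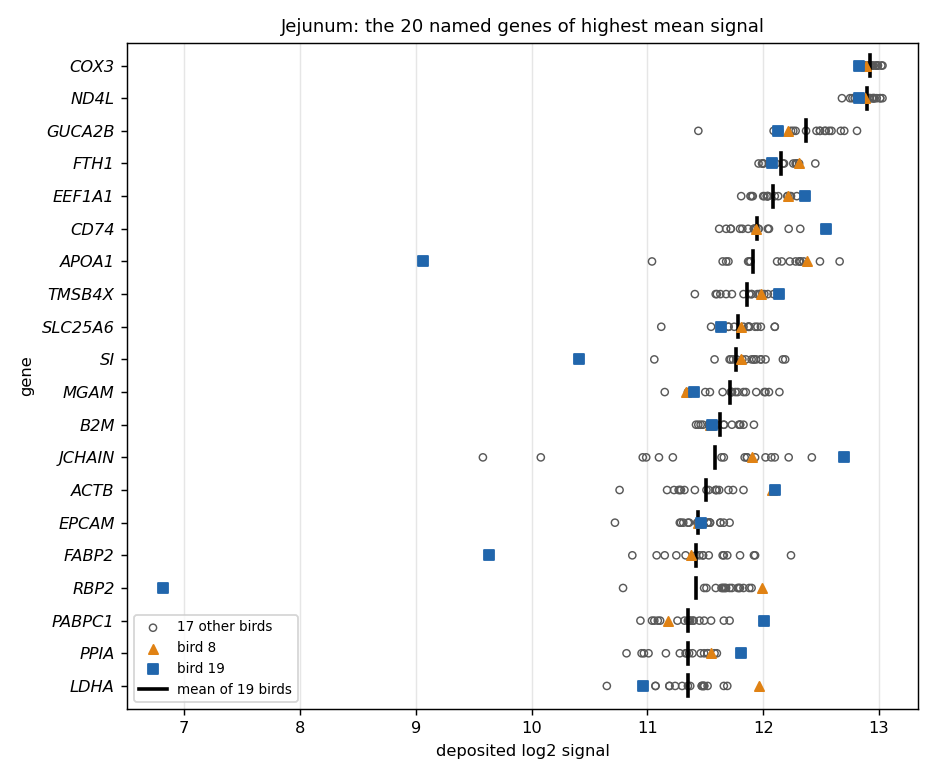
Signal of the 20 named genes of highest mean in the jejunum; each row is a gene, the horizontal axis is the deposited log2 signal, and each point is 1 of 19 birds, with bird 8 (triangle) and bird 19 (square) marked and the mean as a bar. The lipid and retinol genes *APOA1*, *FABP2* and *RBP2* have their lowest signal in bird 19, while *JCHAIN* is spread over many birds.

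Most genes varied little. The median SD over all probe sets was 0.27, and 142 of 18308 had an SD above 1. Among the 1587 genes with a mean of at least 8, after *COX3* (SD 0.07), the steadiest were *SBNO1* (8.38 ± 0.09), the cytoskeletal regulator *CYFIP1* (8.84 ± 0.09) and the elongation regulator *AFF4* (8.09 ± 0.09). The lysyl-tRNA synthetase *KARS* (8.84 ± 0.10), the ribosomal S6 kinase *RPS6KB1* (8.08 ± 0.11), the vesicle GTPase *RAB14* (8.64 ± 0.11), the splicing factor *SNW1* (8.01 ± 0.11) and the vesicle coat scaffold *SEC16A* (8.03 ± 0.11) followed. *ND4L*, given above, belonged to these steadiest genes too (SD 0.10).

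A pair of genes of the chicken major histocompatibility complex were among the 3 of largest SD, beside *TMPRSS15* (SD 1.85). *B-G*, a butyrophilin-like surface protein encoded there, had the largest SD of all named genes (2.55), with a lowest signal of 3.67 (bird 8), a median of 7.23 and a highest of 10.42 (bird 4). *BF2*, the dominant class I molecule, had an SD of 1.72 and lay between 7.54 (bird 1) and 12.29 (bird 2). Its signals fell into a lower band of 10 birds, up to 9.83, and an upper band of 9 birds starting at 11.42. The widest gap of *B-G* lay between 5.79 and 7.23, with 9 birds below and 10 above. The bands were not the same birds, since birds 8, 9 and 19 were high in *BF2* and low in *B-G*, and the signals of the 2 genes correlated at r = 0.27 only. *B2M*, the partner chain of *BF2*, had an SD of 0.15. *BTN3A3L1*, a butyrophilin-like gene, had a similar gap between 4.21 in the lower 14 and 5.47 in the upper 5 birds.

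Digestive and absorptive genes made up much of the rest. Enteropeptidase (*TMPRSS15*), which activates trypsinogen in the gut lumen, had an SD of 1.85 and the values 2.50 (bird 19), 7.57 (median) and 9.17 (bird 3). Without birds 8 and 19 its SD was still 1.48, with birds 12 and 13 at 4.56 and 4.67. The ileal bile acid binding protein *FABP6* had 6.33 (bird 14), 9.92 (median) and 11.29 (bird 19), and its SD without birds 8 and 19 was 1.50. The apical bile acid transporter *SLC10A2*, which works with *FABP6* in the ileum of mammals, ranged between 2.73 (bird 7) and 8.63 (bird 19), with 6.32 as the next highest. The monocarboxylate transporter *SLC5A12* (SD 1.51), the dicarboxylate transporter *SLC13A2* (SD 1.49) and the transmembrane protein *TMIGD1* (SD 1.62) also had their highest signal in bird 19 but kept an SD of 1.33, 1.18 and 1.47 without birds 8 and 19. *PDK4*, the kinase that shuts pyruvate out of oxidation during fasting, lay between 4.45 (bird 19) and 9.17 (bird 2), and *MSMB* between 3.23 (bird 8) and 7.95 (bird 18).

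A second part of the 30 rested on bird 19. Without birds 8 and 19 the SD of *ENPP7* was 0.48 in place of 1.60, that of *LCT* 0.74 in place of 1.49, that of *SLC26A3* 0.51 in place of 1.37, and that of the transcription factor *SPIC* 0.43 in place of 1.24. Others kept more of their spread. The chloride transporter *SLC26A9* had 3.72 (bird 19), 8.81 (median) and 10.13 (bird 1), with an SD of 1.43, or 0.93 without birds 8 and 19. The alcohol dehydrogenase *ADH1C* had 4.92 (bird 19), 8.61 (median) and 10.41 (bird 1), and apolipoprotein A4 (*APOA4*), made during fat uptake, 5.15 (bird 19), 9.01 (median) and 10.71 (bird 9). Bird 19 was the lowest or the highest bird in 21 of the 30 genes. Of these 30, 19 were also among the 30 of largest SD when birds 8 and 19 were left out. The top of that list was *B-G* (2.45), *BF2* (1.75), *C20orf173* (1.72), *ACOD1L* (1.65), *FABP6* (1.50) and *TMPRSS15* (1.48). *C20orf173* was low in 3 birds (4.81 to 5.83) and between 7.90 and 10.68 in the other 16. *RAG2*, best known for antigen receptor rearrangement in lymphocytes, also fell into bands, with 8 birds up to 4.22 and 11 birds from 5.45.

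**Figure D2:**
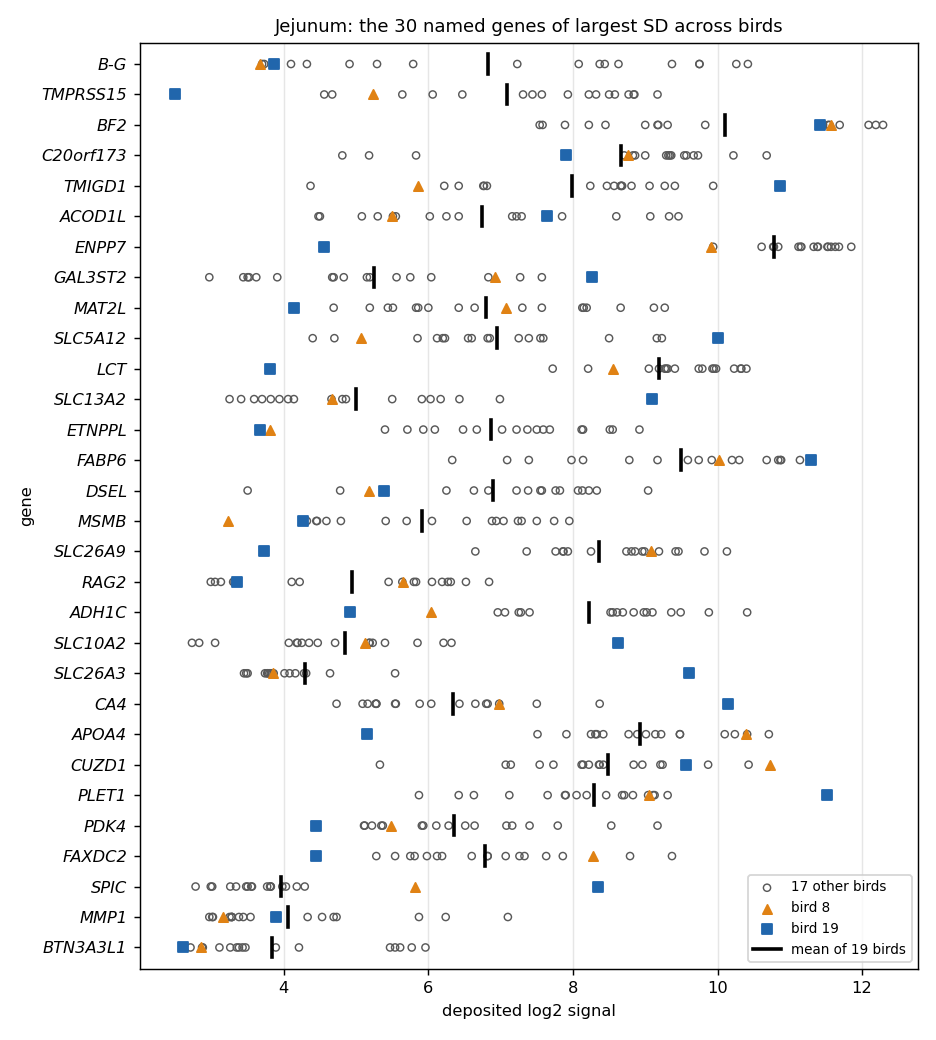
Signal of the 30 named genes of largest SD across 19 birds; each row is a gene, the horizontal axis is the deposited log2 signal, points are birds with bird 8 (triangle) and bird 19 (square) marked, and the bar is the mean. *B-G*, *BF2* and *FABP6* are spread over all birds, while *ENPP7*, *LCT* and *SLC26A3* owe their spread to bird 19.

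The first principal component of all probe sets held 27.6% of the variance between birds, the second 13.3% and the third 10.0%. Scores on the first were highest in bird 19 (58.6), bird 5 (35.7) and bird 8 (31.5), and lowest in bird 2 (-43.8), bird 18 (-27.9) and bird 6 (-25.6). Its sign was set so that the collagen gene *COL1A2* is on the positive side. Over the 19 birds its score ran with the mean level of the crypt (r = 0.94), myeloid (0.92), fibroblast (0.90), B cell (0.89), smooth muscle (0.87) and proliferation lists (0.87). It ran against the absorptive enterocyte (r = -0.86) and lipid oxidation lists (-0.79), as a description, since the lists are part of the component. Taken as the mean deviation of the members of a list with a mean signal of at least 5, the fibroblast and matrix list lay between -1.96 (bird 2) and 1.38 (bird 5), and the absorptive enterocyte list between -1.64 (bird 19) and 0.78 (bird 1), with -1.06 (bird 5) as the lowest without bird 19. The median signal of the arrays moved with the first component too (r = 0.84 over 19 birds), and its part in the pattern was not tested. Without bird 19 the first component held 25.1%.

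**Figure D3:**
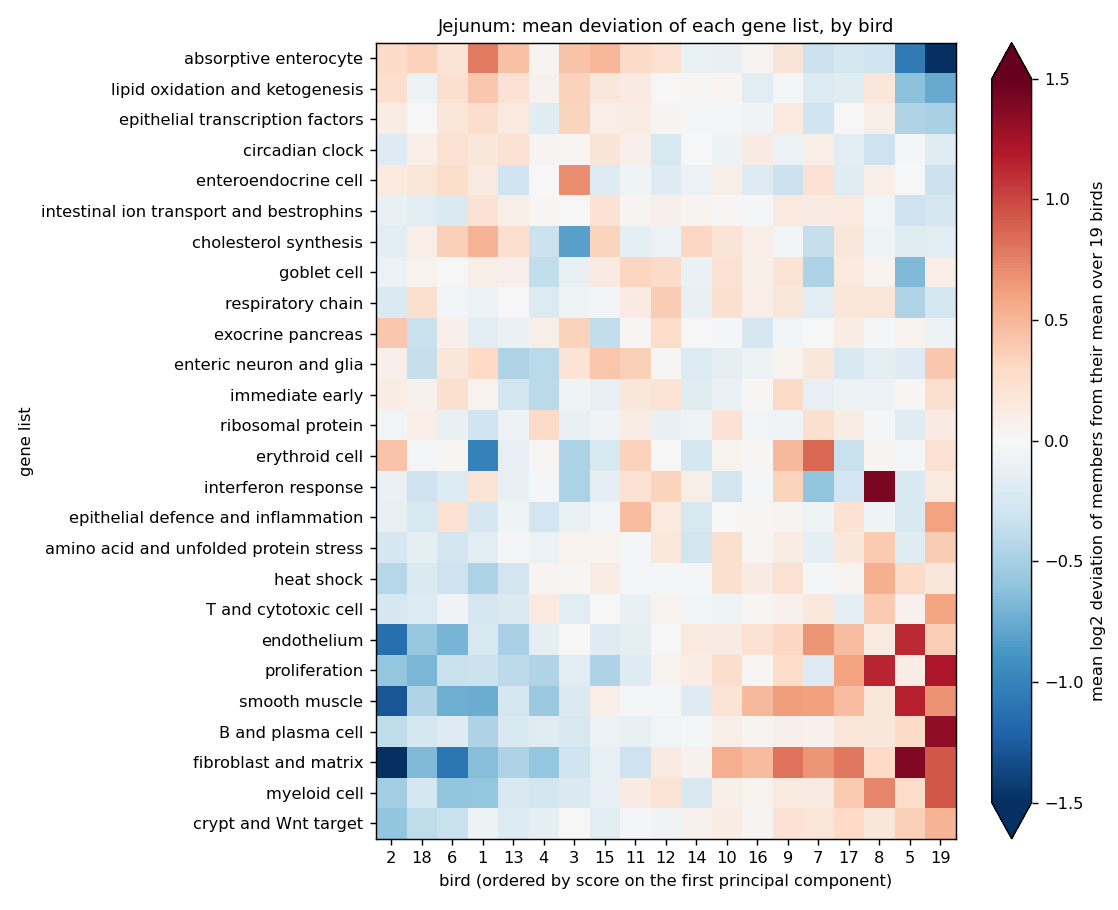
Mean deviation of 26 gene lists in each bird of the jejunum; columns are birds in the order of their score on the first principal component, rows are lists, and the colour gives the mean log2 deviation of the members from their own means over 19 birds. Fibroblast, smooth muscle and endothelial lists are low in bird 2 and high in bird 5, the interferon list is high in bird 8, and the absorptive list is low in birds 5 and 19.

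Lists differed in how closely their members moved together. The median r between pairs of members was 0.88 in the fibroblast and matrix list (29 genes with a mean of at least 5), 0.85 in proliferation (43), 0.73 in endothelium (17), 0.71 in smooth muscle (16), 0.59 in the absorptive enterocyte (39), 0.59 in the interferon response (30) and 0.55 in B and plasma cells (14), beside 0.01 over 7878 named genes of that level. Without birds 8 and 19 it was 0.89 in fibroblast and matrix, but 0.69 in proliferation, 0.42 in the interferon response and 0.27 in B and plasma cells. The T and cytotoxic cell list had a median r of 0.29 (0.19 without bird 19 and 0.12 without birds 8 and 19), the crypt list 0.28, goblet cells 0.24 and enteroendocrine cells 0.20. These are descriptions, since genes on the same 19 arrays are not independent.

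To see which genes vary together, a marker gene was taken from each of 7 lists (the first gene in the order of the list with a mean of at least 6), and every other probe set was fitted on its signal with limma over the 19 birds. Calls are probe sets with an adjusted p under 0.05 over all probe sets, and a slope gives the change in log2 signal per log2 unit of the marker. For the absorptive enterocyte the marker was apolipoprotein B (*APOB*), the scaffold of lipoprotein particles, with 7.74 (bird 19), 11.05 (median) and 11.58 (bird 1). On it, 1181 probe sets had a positive slope (6.45% of those tested) and 1792 a negative one (9.79%). Of the 39 other measured absorptive genes 28 rose with *APOB*, none fell and 11 did not pass, with a median r of 0.72, beside 0.04 over all named genes. *LCT* had a slope of 1.62 ± 0.10 (SE, r = 0.96, adjusted p = 4.3e-09 from limma), and *SI* of 0.44 ± 0.04 (r = 0.97, adjusted p = 2.0e-07).

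Other genes closest to *APOB* were *TINAG* (r = 0.97), *TLCD4* (r = 0.96), the fatty acid hydroxylase *CYP4V2* (r = 0.95), the neutral ceramidase *ASAH2* (r = 0.95), the carotene-cleaving *BCO1* (r = 0.95) and *UNC93A* (r = 0.94). The sterol exporter subunit *ABCG8* followed (r = 0.94). Without birds 8 and 19 these genes and the markers *LCT* and *SI* had an r between 0.81 and 0.92. Over all 19 birds the most opposed genes were the signalling genes *PLEKHO1* (r = -0.96), *PIK3C2B* (r = -0.96), the Rac regulator *ARHGAP24* (r = -0.95) and the proton channel of leukocytes *HVCN1* (r = -0.93). Bird 19 weighs on such values. *HVCN1* had 8.20 there and at most 5.55 in the others, while *APOB* had 7.74 there and 9.54 or more in the others. Proliferation genes fell with *APOB* in 47 of 49 cases, and 22 of 49 without birds 8 and 19. Of the 22 B and plasma cell genes 17 fell (6 without both birds), of 34 fibroblast and matrix genes 23 (27 without both) and of 26 lipid oxidation and ketogenesis genes 17 rose (13 without both). Among all 11527 other named genes 1343 fell and 799 rose with *APOB*, and 1091 and 965 without both birds. There were 2792 calls without bird 19 and 2850 without birds 8 and 19, against 2973. With *ENPEP*, a brush border aminopeptidase and the next gene of the list, as the marker there were 1329, and the r of *SI*, *LCT* and *ASAH2* with it was 0.46, 0.40 and 0.29. With each array centred on its median 2276 probe sets rose and 1416 fell, so the split between directions depended on this choice.

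The stromal marker was *COL1A2*, a chain of type I collagen, with 5.62 (bird 2), 7.78 (median) and 9.20 (bird 5). On it 1519 probe sets had a positive slope (8.30%) and 859 a negative one (4.69%), and 1428 and 662 without birds 8 and 19. Of 33 other fibroblast and matrix genes 30 rose and none fell, with a median r of 0.93, beside -0.08 over all named genes. The collagen VI chain *COL6A3* had a slope of 0.92 ± 0.05 (SE, r = 0.98, adjusted p = 1.3e-11 from limma). The matrix proteins *TGFBI* (r = 0.98), *SPARC* (r = 0.98) and fibronectin *FN1* (r = 0.97), the basement membrane collagens *COL4A1* (r = 0.98) and *COL4A2* (r = 0.97), the laminin chain *LAMA4* (r = 0.97) and the collagen chaperone *SERPINH1* (r = 0.97) followed closely. *SPARC* lay between 8.29 in bird 2 and 11.86 in bird 5, and *COL1A1* between 7.82 (bird 2) and 11.66 (bird 9).

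Vessels and muscle moved along with the matrix. Of 20 endothelial genes 13 rose with *COL1A2* and 1 fell, beside 1142 and 591 of all 11527 other named genes. The capillary sialomucin *EMCN* had a slope of 1.01 ± 0.12 (SE, r = 0.87, adjusted p = 4.0e-06 from limma) and the endothelial cadherin *CDH5* of 0.91 ± 0.09 (r = 0.92, adjusted p = 1.5e-07). Of 21 smooth muscle genes 16 rose and none fell, among them the muscle myosin *MYH11* (slope 1.16 ± 0.09, r = 0.95, adjusted p = 4.1e-09). Of 21 crypt and Wnt target genes 10 rose, among them *OLFM4*, a crypt base glycoprotein (slope 0.46 ± 0.09, adjusted p = 0.0010), and the stem cell receptor *LGR5* (slope 0.47 ± 0.12, adjusted p = 0.0087). The most opposed genes were the thioesterase *ACOT9* (r = -0.86), the sterol sensor *INSIG2* (r = -0.85), *GK5* (r = -0.85), *MPP5* (r = -0.85), which holds epithelial polarity, and the prostaglandin receptor *PTGER4* (r = -0.84). The fatty acid transporter *CD36* fell with a slope of -0.97 ± 0.18 (r = -0.76, adjusted p = 0.00069). With arrays centred on their median 1277 probe sets rose and 1937 fell, so again the split changed with this choice.

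The smooth muscle marker was enteric gamma actin (*ACTG2*), with 7.28 (bird 4), 8.81 (median) and 10.24 (bird 19). It gave 982 positive calls (5.36%) and 465 negative ones (2.54%). Without bird 19 these were 268 and 65, and without birds 8 and 19 they were 161 and 41. Closest were *CSRP1*, a partner of smooth muscle actin (slope 0.63 ± 0.08, r = 0.87, adjusted p = 0.00099), the guanylate cyclase subunit *GUCY1A2* (r = 0.85), the vessel factor *ANGPT1* (r = 0.85), the actin crosslinker *ACTN1* (r = 0.84) and *TAGLN* (r = 0.84). *CD36* was the most opposed (r = -0.86), followed by the phytanoyl hydroxylase *PHYH* (r = -0.84) and *PPARA*, the receptor that drives fatty acid oxidation (r = -0.81). *CD36* had 5.13 in bird 19, where *ACTG2* was highest, and 6.27 or more in the others. The r of these single genes is over all 19 birds and is not given without bird 19. Of 20 other smooth muscle genes 13 rose with *ACTG2* and none fell (10 without birds 8 and 19), with a median r of 0.70, beside -0.05 over all named genes. Without both birds the median r of the smooth muscle genes was 0.69. Of 34 fibroblast and matrix genes 29 rose (13 without both birds), with a median r of 0.69, and 0.66 without both. Over all 11527 other named genes 722 rose, and 118 without both, so calls dropped in general. With *COL1A2* as a second term no probe set was called on *ACTG2*. With arrays centred on their median 685 probe sets rose and 687 fell.

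Dividing cells were followed by topoisomerase II alpha (*TOP2A*), which untangles DNA at mitosis, with 4.85 (bird 18), 6.62 (median) and 8.40 (bird 19). It gave 1696 positive calls (9.26%) and 1445 negative ones (7.89%). Without bird 19 the counts were 737 and 361, without bird 8 alone the total was 1997 in place of 3141, and without both they were 243 and 53. With arrays centred on their median 1344 rose and 1990 fell. Of 48 other proliferation genes 44 rose with *TOP2A* and none fell (35 without both birds), with a median r of 0.89 (0.80 without both), beside -0.04 over all named genes. The mitotic kinesins *KIF4B* (slope 0.86 ± 0.06, r = 0.96, adjusted p = 4.8e-08 from limma) and *KIF2C* (r = 0.96), the condensin *SMC2* (r = 0.95), the ribonucleotide reductase subunit *RRM1* (r = 0.95), the spindle protein *ASPM* (r = 0.94) and the proliferation antigen *MKI67* (r = 0.94) were closest. *MKI67* had 9.35 in bird 19, 9.09 in bird 8 and a median of 7.34. Among the most opposed named genes were the nuclear receptor of xenobiotics *NR1I3* (r = -0.83) and the growth factor protease *PAPPA2* (r = -0.84), neither of which passed without birds 8 and 19 (adjusted p = 0.086 and 0.057).

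Fibroblast and matrix genes rose with *TOP2A* in 21 of 34 cases (8 without birds 8 and 19), with a median r of 0.58 with and without them. Absorptive genes fell in 17 of 40 (none without both), with a median r of -0.505, and -0.325 without both. Over all 11527 other named genes 1300 rose and 736 fell, and 174 and 29 without both, so calls dropped in general. On *COL1A2* 31 of 49 proliferation genes rose, and 35 without both, beside 1142 and 1061 of all 11527 other named genes. With *COL1A2* as a second term 943 probe sets were called on *TOP2A* over all 19 birds. That fit was not repeated without birds 8 and 19. *MKI67* rose with *COL1A2* as well (slope 0.62 ± 0.14, r = 0.68, adjusted p = 0.0054 from limma).

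Calls on the B cell marker *BTK* rested on bird 19. For B and plasma cells the marker was *BTK*, a kinase of B cell receptor signalling that myeloid cells also use, with 5.91 (bird 18), 6.43 (median) and 8.17 (bird 19), the next highest being 6.74. It gave 1041 positive calls (5.69%) and 617 negative ones (3.37%), but 3 and 5 without bird 19. Of 21 other genes of the list 13 rose with *BTK* (median r 0.70, beside -0.03 over all named genes), and none did without bird 19. The closest genes were *PRKD3* (r = 0.92), *SLC37A2* (r = 0.92), *HVCN1* (r = 0.92), the integrin adaptor *APBB1IP* (r = 0.91) and P-selectin *SELP* (r = 0.91), and without bird 19 their r was 0.67, 0.68, 0.56, 0.45 and 0.43. *RBP2* (r = -0.94) and *LCT* (r = -0.92) were the most opposed, and both were lowest in bird 19, where *BTK* was highest. *JCHAIN*, which spread over many birds, did not pass on *BTK* (r = 0.42, adjusted p = 0.18). With *JCHAIN*, the next gene of the list, as the marker 1260 probe sets rose and 693 fell over 19 birds. That fit was not repeated without bird 19. The mean level of the B and plasma cell list ran against the absorptive list (r = -0.91, and -0.82 without birds 8 and 19). It ran with the smooth muscle list (r = 0.68, and 0.91 without both). The B cell receptor chain *CD79B* had 8.26 in bird 19 and between 5.07 and 6.37 in the others.

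The defining T cell genes had an SD near that of all genes, while the list as a whole had a median SD of 0.39, beside 0.27 over all named genes. The invariant chain *CD3E* had 8.57 (bird 13), 9.01 (median) and 9.42 (bird 19), with an SD of 0.24, and *CD3D* an SD of 0.31, *CD8A* of 0.28 and the T cell transcription factor *BCL11B* of 0.25. No probe set was called on *CD3E* in either direction (0% each) by limma or by limma with a mean-variance trend, while 2289 had an unadjusted p under 0.05, and 6 were called after quantile normalization. The gene with the highest r was *CD3D* (slope 1.06, r = 0.81, adjusted p = 0.16). Of the 32 genes of the list 15 fell and 1 rose with *APOB* (4 and 1 without birds 8 and 19), with a median r of -0.54, and -0.26 without both. Over all 11527 other named genes 1343 fell and 799 rose, and 1091 and 965 without both. The mean level of the T and cytotoxic cell list ran with the first principal component (r = 0.79). The cytotoxic granule proteases *GZMA* (8.75 to 10.79, SD 0.58) and *GZMK* (5.25 to 7.42, SD 0.57) varied more.

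The interferon response formed a small pattern. The mean level of its list ran with the proliferation list at r = 0.53 over 19 birds, and at 0.11 without birds 8 and 19. With the fibroblast and matrix list these were 0.07 and -0.07. *IFIT5*, an interferon-induced RNA-binding protein, had 6.67 (bird 7), 8.07 (median) and 10.58 (bird 8), and 40 probe sets rose with it (0.218%) while 2 fell (0.0109%). Of 32 other genes of the list 17 rose and none fell, with a median r of 0.76, beside 0.00 over all named genes. The calls shrank to 7 without birds 8 and 19, and 6 without bird 8 alone, and 4 members of the list remained called without both. The antiviral genes *OASL* (slope 0.80 ± 0.06, r = 0.95, adjusted p = 4.2e-07 from limma), *RSAD2* (slope 0.97 ± 0.10, r = 0.91, adjusted p = 1.6e-05), *CMPK2* (r = 0.91) and *IFI6* (r = 0.85) passed with and without these birds (adjusted p = 0.0019, 0.0029, 0.010 and 0.010 without). The RNA sensor *IFIH1* (r = 0.89) and *ZC3HAV1* (r = 0.91), which degrades viral RNA, passed with them only. *MX1* lay between 7.04 (bird 7) and 9.01 in all birds but bird 8, where it had 10.55. *BF2* is an interferon target in the list, but its bands were spread over birds with low and high *IFIT5*.

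**Figure D4:**
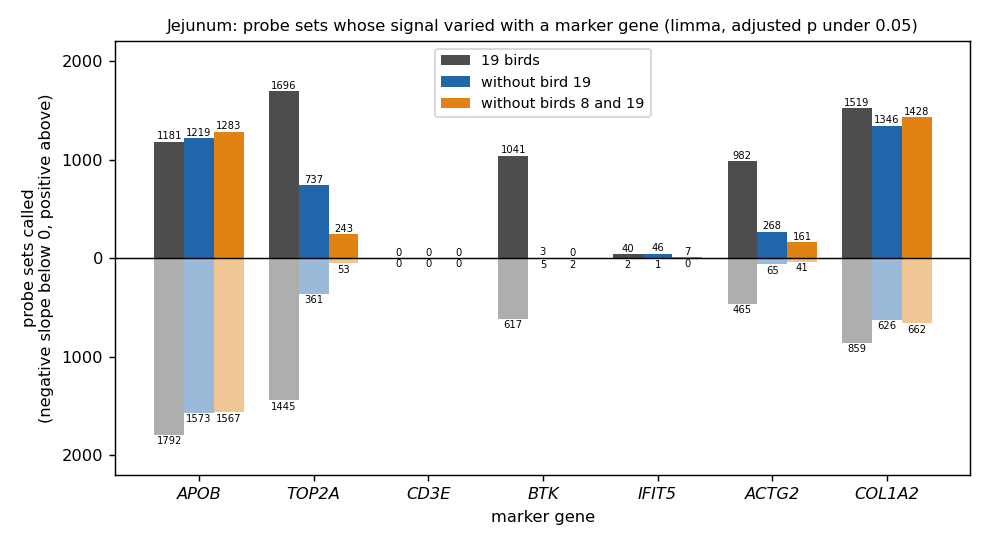
Probe sets called with a positive slope (upward bars) and a negative slope (downward bars) on each of 7 marker genes, by limma at an adjusted p under 0.05, over 19 birds, without bird 19, and without birds 8 and 19. Counts are 1219 and 1573 on *APOB* and 1346 and 626 on *COL1A2* without bird 19, those on *BTK* shrink to 3 and 5 without bird 19, and those on *IFIT5* to 7 and 0 without both.

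Among the 21 pairs of these 7 markers, 11 correlated at an adjusted p under 0.05 (two-sided permutation test of Pearson's r, 100000 permutations, adjusted over the 21 pairs). *APOB* ran against *TOP2A* (r = -0.69, adjusted p = 0.0028, permutation test, and rho = -0.85, adjusted p = 0.00021), and the relation held without the 2 birds farthest from the median of *APOB* (birds 5 and 19, r = -0.79, adjusted p = 0.0011). It also ran against *COL1A2* (r = -0.58, adjusted p = 0.023, rho = -0.77, adjusted p = 0.00063), with r = -0.64 without birds 5 and 19 (adjusted p = 0.031) and r = -0.71 without birds 8 and 19 (adjusted p = 0.014). *ACTG2* and *COL1A2* rose together (r = 0.73, adjusted p = 0.0015, rho = 0.84, adjusted p = 0.00021, and r = 0.71 without birds 4 and 19, adjusted p = 0.013). So did *TOP2A* and *COL1A2* (r = 0.62, adjusted p = 0.016, rho = 0.77, adjusted p = 0.00063, and r = 0.60 without birds 18 and 19, adjusted p = 0.048), and *BTK* and *ACTG2* (r = 0.64, adjusted p = 0.0011, rho = 0.79, adjusted p = 0.00063, and r = 0.66 without birds 18 and 19, adjusted p = 0.027).

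The other pairs did not pass without the 2 farthest birds. *APOB* and *BTK* had the strongest r (-0.91, adjusted p = 0.00084, permutation test, and rho = -0.71, adjusted p = 0.0034), and without birds 5 and 19 it was -0.57 (adjusted p = 0.053). *APOB* with *ACTG2* (r = -0.67, adjusted p = 0.0012, rho = -0.70, adjusted p = 0.0037) had r = -0.56 without these birds (adjusted p = 0.062). Both passed without bird 19 (r = -0.65 and -0.60, adjusted p = 0.027 each, permutation test) and without birds 8 and 19 (r = -0.64 and -0.58, adjusted p = 0.037 each). *TOP2A* with *BTK* (r = 0.65, rho = 0.53) had r = 0.28 without birds 18 and 19. This pair passed without bird 19 (r = 0.574, adjusted p = 0.044, permutation test) and without birds 8 and 19 (r = 0.595, adjusted p = 0.049). *TOP2A* with *ACTG2* (r = 0.60, rho = 0.60) had r = 0.44 without birds 18 and 19. *APOB* with *CD3E* (r = -0.54, rho = -0.46) had r = -0.45 without birds 5 and 19. *CD3E* with *BTK* (r = 0.52, rho = 0.29) had r = 0.37 without birds 13 and 19. These last pairs did not pass without bird 19 either. None of the 6 pairs with *IFIT5* passed, and their r lay between -0.08 and 0.32.

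**Figure D5:**
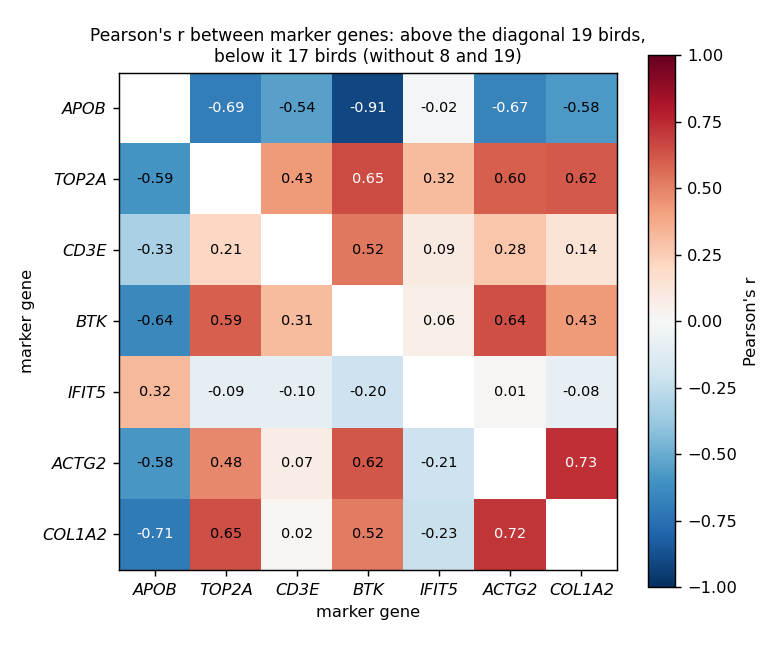
Pearson's r between the log2 signals of 7 marker genes in the jejunum; rows and columns are genes, fields above the diagonal use all 19 birds and fields below it 17 birds, without birds 8 and 19. *APOB* is negative against *TOP2A*, *BTK*, *ACTG2* and *COL1A2* in both, and *IFIT5* lies between -0.08 and 0.32 against the other markers over 19 birds.

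The 200 genes of largest SD were also grouped by their correlation alone (average linkage on 1 minus r, height 0.5), which gave 8 groups of at least 5 genes with 160 genes in all. The groups were built from the same signals, so they are a description. The largest held 85 genes, of which 27 are on the fibroblast, smooth muscle or endothelium lists and 53 on no list, centred on *COL1A2*, tenascin (*TNC*) and *TGFBI*, and its mean lay between -2.09 in bird 2 and 1.30 in bird 5. It also held *MKI67* and *TOP2A*, and the genes of the secreted proteins *FGF10* and *GREM1*. The median r within it was 0.83, and 0.86 without birds 8 and 19. A group of 26 genes, of which 8 are on the absorptive enterocyte list and 14 on no list, was led by *LCT*, *APOB* and *TLCD4* and included *GATA4*, *GIP* (a hormone of duodenal and jejunal K cells) and *PCK1* (gluconeogenesis). Its mean lay between -3.38 in bird 19 and 1.06 in bird 1, with -1.04 (bird 5) as the lowest without bird 19, and its median r was 0.75, or 0.56 without birds 8 and 19. The means of these groups opposed each other (r = -0.54, and -0.61 without both birds).

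A group of 16 genes joined the B follicle genes *CR2* and *CXCR5* to *SPIC*, *SLC26A3*, *CA4*, *SLC10A2* and *SLC6A20*. Its mean was 3.31 in bird 19, and its median r fell to 0.24 without birds 8 and 19, against 0.69 with them. The 11 genes around the ubiquitin-specific protease *USP41*, *LY6E* and *RSAD2* held 6 members of the interferon list and were highest in bird 8 (2.47). A group of 7 held *CD36*, the bile acid-induced hormone *FGF19*, the gap junction gene *GJB1* and the detoxifying *CYP1A1*, and was highest in bird 1 (2.01) and lowest in bird 19 (-1.51). Without birds 8 and 19 its mean ran with that of the *LCT* and *APOB* group (r = 0.73).

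The 3 smallest groups, of 5 genes each, did not rest on birds 8 and 19, without which their median r was 0.70, 0.63 and 0.64. In the first, *ACOD1L* (4.48 to 9.46), related to the itaconate-forming enzyme of activated macrophages, moved with *GATD3AL2*, the amino acid transporter *SLC6A14* and *RASD1*, highest in birds 11 (1.95), 2 (1.83) and 17 (1.45) and lowest in bird 5 (-1.52). In the next, the phosphate transporter *SLC34A2* (4.38 to 8.25) moved with glutamine synthetase *GLUL* (6.78 to 11.10) and was highest in bird 12 (1.17). In the last, *FABP6* moved with *TMIGD1*, *TMEM252*, *SLC5A12* and *SLC13A2*, lowest in bird 14 (-2.76) and bird 7 (-1.63) and highest in bird 19 (2.43) and bird 11 (1.63). Without birds 8 and 19 the means of the 3 groups had ranges of 3.47, 2.48 and 4.38, in this order.

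The mucin *MUC2* of goblet cells lay between 9.63 (bird 5) and 11.80 (bird 19) and the goblet product *CLCA1* between 7.85 (bird 5) and 11.76 (bird 2). On *APOB* 1 of 20 goblet genes fell and none rose (over all probe sets 9.79% fell and 6.45% rose), and 5 rose and 1 fell without bird 19. Of the enteroendocrine genes motilin (*MLN*), which drives gut contractions between meals, and chromogranin A (*CHGA*), a granule protein, were both highest in bird 3 (8.28 and 10.64, with medians of 6.10 and 8.48), and 1 of 20 members each rose and fell on *APOB*. Genes of cholesterol synthesis were lowest in the same bird, where squalene epoxidase *SQLE* had 4.84 (6.22 or more in the others) and the demethylase *CYP51A1* 6.44 (7.30 or more). The list as a whole lay between -0.82 (bird 3) and 0.51 (bird 1), with a median r of 0.40 between members.

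Of the measured genes of other cell types, 4 of 20 for enteric neurons and glia, 6 of 14 for the exocrine pancreas and 4 of 12 for erythroid cells had a mean of at least 5, led by the neuronal tubulin *TUBB3* (5.90), the zymogen granule protein *CUZD1* (8.49) and the transferrin receptor *TFRC* (7.42), which other dividing cells use too. The other neuronal genes *ELAVL4*, *SNAP25* and *NEFL* averaged 2.65, 4.16 and 3.39, and the pancreatic *PLA2G1B* and *CPB1* 2.60 and 2.87. Of the erythroid genes the hemoglobin chains *HBA1* (4.77 to 8.72) and *HBAD* (5.62 to 8.53) were lowest in bird 1 and highest in bird 7, while the red cell exchanger *SLC4A1* averaged 3.89. Median r between members of these lists lay between -0.06 and 0.06. Ribosomal protein genes had a median SD of 0.26, near the 0.27 over all named genes, while *RPL32* lay between 8.17 (bird 15) and 12.01 (bird 5). The respiratory chain list lay between -0.45 (bird 5) and 0.38 (bird 12).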

How the data were processed

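Jejunal mucosa of 19 broilers was hybridized to chicken whole-transcript arrays. The authors deposited log2 signals, and their processing notes name the Transcriptome Analysis Console (4.0.1.36). The sources used here do not state the background correction, normalization or summarization, and nothing was normalized again. Symbols came from the annotation of the platform, and 11727 gene IDs of 12300 probe sets were found in RefSeq (GRCg7b).

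Each probe set was regressed on the signal of 1 marker gene by the lmFit and eBayes functions of limma 3.58.1 under R 4.3.3 (Benjamini-Hochberg over all probe sets but those of the marker). Marker pairs were tested with 100000 permutations in Python 3.11.15 (numpy 2.4.6, pandas 2.3.3, scipy 1.17.1, matplotlib 3.10.9). The limma fits and the permutation test were tried on simulated data. Noise in the limma simulation was independent between probe sets, unlike the signals of these arrays, so genes that vary together were not covered. The 26 lists held 980 genes, 653 of them measured, and members and lists were chosen with earlier results of these data known. Named genes were the 20 of highest mean, the 30 of largest SD, the 10 of largest and of smallest SD with a mean of at least 8, the 7 markers with their closest and most opposed genes, leading genes of each group, and members of each list with large SD. Others were named for their role or for birds 8 and 19 after their values were seen. Alternatives were quantile normalization, centring on the array median, a minimum mean of 5, ranks, a mean-variance trend, another marker and birds left out. Promoters were not analysed here. Arrays have no read depth, and their number limits the precision.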

Additional observations from a re-analysis of the deposited data

How the results depend on the processing

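The 20 genes of highest mean were the same 20 under quantile normalization, centring, ranking by the median and without birds 8 and 19. Of the 30 genes of largest SD, 28 and 29 stayed under quantile normalization and centring, 19 without bird 19, 19 without birds 8 and 19, and 17 when ranked by the median absolute deviation. The first principal component held 28.6% after centring, 25.1% without bird 19, 26.4% without birds 8 and 19, and 31.1% without probe sets with a mean under 5 (27.6% otherwise). Calls on *APOB* fell to 1329 with *ENPEP* as the marker, where *SI*, *LCT* and *ASAH2* no longer passed, those on *BTK* to 87 and those on *IFIT5* to 7 with ranks. Without bird 19 calls were 1098 on *TOP2A*, 8 on *BTK* and 333 on *ACTG2*, and without birds 8 and 19 they were 296 on *TOP2A*, 2 on *BTK*, 7 on *IFIT5* and 202 on *ACTG2*. Leaving out 1 bird at a time gave 1098 to 3491 calls on *TOP2A* (1997 without bird 8), 0 to 1 on *CD3E*, 8 to 1975 on *BTK*, 6 to 48 on *IFIT5*, 333 to 1766 on *ACTG2*, 2593 to 3024 on *APOB* and 1887 to 2410 on *COL1A2*. Quantile normalization gave 6 calls on *CD3E* in place of 0. With *COL1A2* as a second term, chosen after seeing the data and fitted over all 19 birds only, there were 955 calls on *APOB*, 943 on *TOP2A*, 735 on *BTK*, 65 on *IFIT5* and 0 on *ACTG2*. Of the marker pairs 11 passed, 8 to 12 with 1 bird left out and 5 without the 2 birds farthest from the median of the first marker. Single genes were compared between settings only where they were the closest or most opposed called on a marker, as picked by r on these same arrays. None of their correlations changed sign, nor did that of a marker pair that passed. With 1 bird left out 35 of 1425 correlations of these genes and 7 of 209 marker pairs no longer passed. Under the other settings these were 104 of 656 and 16 of 66. Other genes named with a marker were not followed in this way. Of 120 SDs of the genes of largest spread 10 moved by over 1.5 times. The cause of these changes was not tested beyond the birds and terms left out or added. No paired analysis was possible because only 1 tissue was tested, with 1 array per bird.

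The number of arrays limits the precision of all values. Centring shifted single arrays by -0.07 to 0.11.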
